A study of Mus musculus with 12 samples.

Results

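The phase II conjugation enzyme genes studied here are the UDP-glucuronosyltransferases (Ugt), the glutathione S-transferases (Gst) and the sulfotransferases (Sult), taken as every autosomal probe of the array whose gene name begins with one of these family symbols followed by a digit or a lower-case letter. The rule found 72 probes of 40 genes, out of 19944 autosomal gene names on the array. There were 20 Gst, 10 Sult and 10 Ugt genes, on 12 chromosomes. Of the 40 genes, 15 had 1 probe, 18 had 2 probes and 7 had 3 probes. Runs of member probes with gaps of at most 1 Mb formed 19 clusters, of which 11 held a single gene and 8 held several.

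Phase II enzymes couple a polar group to drugs, steroids, bile acids, bilirubin and the reactive products of oxidation, which makes them soluble and ready for export into bile or urine. Glucuronosyltransferases add a sugar acid from UDP-glucuronate, glutathione S-transferases add glutathione, and sulfotransferases add sulfate from the activated donor PAPS. The liver is the main site of these reactions, and many of the genes lie side by side in arrays of near-identical copies that arose by duplication.

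Array-based comparative genomic hybridization (aCGH) was used, which compares the amount of DNA of 2 samples at many positions of the genome. Each of the 12 arrays held DNA of 1 liver tumor of an Mdr2/KO mouse, labelled with Cy5, against Cy3-labelled DNA of the matched non-tumor liver, which carries the same Mdr2 deletion. The post-PHx group was 6 tumors (4 males and 2 females) of mice aged 9 months that had lost 70% of the liver by partial hepatectomy at 3 or 6 months of age, and the spontaneous group was 6 tumors (2 males and 4 females) of untreated mice aged 13 to 14 months. The question put to these data is how tumors that follow hepatectomy differ in their genomic aberrations from those that arise untreated. Mdr2 (Abcb4) is the canalicular phospholipid transporter, and mice of the FVB strain without it develop chronic liver inflammation and later liver tumors. The 6 tumors of a group came from 6 mice. Age and treatment differ between the groups together, and only 1 of 3 slides held both groups. That slide held only PHx5M (male) and PHx6F (female) against Spon5F and Spon6F (both female). DNA carries no cell type markers, and a whole tumor also holds non-malignant cells, so a ratio from fewer cells with a change cannot be told apart from one with a smaller change in every cell.

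All values below are log2 ratios of tumor over own non-tumor liver, centred on the autosomal median of each array, where 0 means equal amounts. A gene was counted as gained at a mean of at least 0.4 and as lost at a mean of at most -0.4. The study's methods set this value for the mean of a region of 2 or more probes, whereas here it was also read for single genes, of which Gstk1, Sult1a1 and Gsto1 passed it on 1 probe. Spots were bright in both dyes. The median signal over background ran from 7.07 to 16.9 in green and from 3.80 to 8.27 in red on the post-PHx arrays, and from 13.9 to 25.9 and from 5.31 to 11.9 on the spontaneous arrays. The noise between neighbouring probes, as an SD of the log2 ratio, was 0.161 in the median post-PHx array (range 0.155 to 0.187) and 0.181 in the median spontaneous array (range 0.147 to 0.265). Of the 72 member probes, 70 were well above background in both channels of all arrays, and 0 were saturated.

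Copy-number change of phase II genes was sparse and came in a few tumors at a time. There were 480 pairs of a member gene and a tumor. In post-PHx tumors 15 of 240 pairs (6.25%) were gained, against 3.37% of the pairs of all autosomal genes, and 0 were lost, against 1.04%. In spontaneous tumors 9 of 240 pairs (3.75%) were gained, against 4.23% of all pairs, and 6 (2.5%) were lost, against 5.2%. Neighbouring genes share segments, so these pairs are not independent, and no test was made on them. Of the 40 genes, 23 stayed inside the filter in all 12 tumors, a count that was not set against all genes. By family, over all 12 tumors, 9 of 120 Ugt pairs (7.5%), 10 of 240 Gst pairs (4.17%) and 5 of 120 Sult pairs (4.17%) were gained, against 3.80% of all gene pairs. The Ugt share leaned on PHx4M, where Ugt8a (0.41), Ugt2a3 (0.41), Ugt2a2 (0.45), Ugt3a1 (0.56) and Ugt3a2 (0.67) were gained. Lost were 1 of 120 Ugt (0.833%), 2 of 240 Gst (0.833%) and 3 of 120 Sult pairs (2.5%), against 3.12% of all gene pairs.

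The tumors were unequal. In PHx4M, 7 of 40 member genes (17.5%) were gained, against 5.92% of all genes of that tumor. PHx2F had 4 gained members (10%, against 3.08% of all genes) and Spon2M had 3 gained and 3 lost members (7.5% each, against 10.1% and 8.28%). PHx6F and Spon6F had 0 members past the filter in either direction. Without PHx4M, the gained pairs of post-PHx tumors numbered 8.

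**Figure D1:**
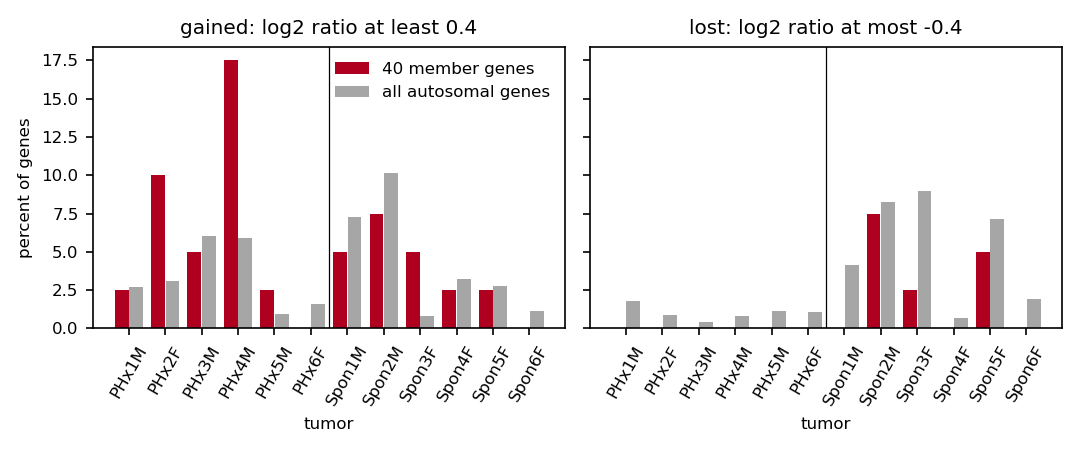
Percent of the 40 member genes (red bars) and of all autosomal genes (grey bars) past the filter in each of the 12 tumors, gained on the left and lost on the right; the line parts post-PHx from spontaneous tumors. PHx4M has the highest share of gained members at 17.5%, and lost members appear only in Spon2M, Spon3F and Spon5F.

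Called regions gave a narrower picture. On each array, runs of probes were scored by their summed, error-weighted ratios, after the idea of ADM-2, and kept at a score of at least 6, with 2 or more probes and the same filter of 0.4. In post-PHx tumors 6 of 240 pairs lay inside a called gain (2.5%, against 1.96% of all gene and tumor pairs) and 0 lay inside a called loss, as did 0% of all pairs. PHx4M held 3 of the 6 pairs in gains, and 4.21% of all its genes lay in a called gain. Without PHx4M, the pairs in called gains of both groups together fell from 8 to 5. In spontaneous tumors 2 of 240 pairs lay inside a called gain (0.833%, against 1.42%) and 2 lay inside a called loss (0.833%, against 1.33%). The genes were Gsta3, Gstcd, Gstz1, Sult4a1, Ugt3a1 and Ugt3a2. The region calls that hold them are described next, by enzyme family.

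Gsta3 encodes an alpha-class glutathione S-transferase that in mouse liver conjugates the epoxide of aflatoxin B1. Its 3 probes lie at chr1:21235491-21250124 of the mouse build NCBI36 (mm8). In post-PHx tumors the cluster mean ran from -0.08 to 0.70 with a median of 0.04, and in spontaneous tumors from -0.24 to 0.73 with a median of -0.05. The highest value of each group belonged to a single tumor, 0.70 in PHx3M (1.63-fold) and 0.73 in Spon2M (1.66-fold), and the other 10 tumors lay between -0.24 and 0.13. In PHx3M the 27 other probes within 1 Mb averaged 0.67 ± 0.17 (SD), and the called gain spanned 21.5 Mb with 233 probes and a mean of 0.52. In Spon2M the 29 neighbouring probes averaged 0.45 ± 0.34 (SD), and the called gain spanned 15.7 Mb with 134 probes and a mean of 0.48. Gsta3 was raised together with a long stretch of proximal chromosome 1 in both tumors. In Spon2M the median of all chromosome 1 probes was itself 0.28, whereas in PHx3M it was -0.01.

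The paralogs Ugt3a1 and Ugt3a2 encode transferases that use sugars other than glucuronate as donors. Their 4 probes lie at chr15:9223495-9283271. In post-PHx tumors the cluster mean ran from -0.05 to 0.62 with a median of 0.09, and in spontaneous tumors from -0.10 to 0.13 with a median of 0.06. PHx4M (0.62, 1.53-fold) and PHx2F (0.48, 1.40-fold) stood above the highest spontaneous tumor, and the other 4 post-PHx tumors overlapped the spontaneous range. Both genes were past the filter in both tumors, Ugt3a1 at 0.42 in PHx2F and 0.56 in PHx4M and Ugt3a2 at 0.55 and 0.67. The called gain spanned 9.83 Mb (166 probes, mean 0.42) in PHx2F and 4.87 Mb (94 probes, mean 0.57) in PHx4M. The neighbours within 1 Mb averaged 0.41 ± 0.18 (SD) and 0.57 ± 0.21 (SD), close to the gene values, and the median of chromosome 15 was -0.00 and 0.01. The group means of the pair differed by 0.18 (95% interval -0.10 to 0.46), which includes 0.

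Gstcd, named for its glutathione S-transferase C-terminal domain, has 3 probes at chr3:132974455-133028255. In post-PHx tumors its mean ran from 0.03 to 0.81 with a median of 0.11, and in spontaneous tumors from -0.12 to 0.29 with a median of 0.10. PHx4M was at 0.81 (1.75-fold), the highest gene value among all members, and the next tumors were PHx2F at 0.31 and Spon3F at 0.29. The called gain of PHx4M around it spanned 7.08 Mb with 110 probes and a mean of 0.47, and the 23 neighbours within 1 Mb averaged 0.46 ± 0.24 (SD). All 3 probes of Gstcd (0.75, 0.76 and 0.92) were above that mean. Gstcd was above its neighbours in 11 of 12 tumors, by 0.35 in PHx4M, 0.33 in PHx2F, 0.32 in Spon3F, 0.22 in Spon1M, 0.21 in Spon2M and 0.20 in PHx1M. In PHx2F, where the neighbours averaged -0.01, the 3 probes read 0.51, 0.13 and 0.29.

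Ugt8a, which makes the galactosylceramide of myelin, lies some megabases away on the same chromosome at chr3:125892214-125922073. PHx4M was at 0.41, while the other 11 tumors ran from -0.20 to 0.09. Its 3 probes read 0.78, 0.18 and 0.28 in PHx4M, so the mean leaned on 1 of them. They fell just before the called gain of PHx4M began, and the 12 neighbours within 1 Mb averaged 0.31 ± 0.25 (SD).

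Gstz1 encodes maleylacetoacetate isomerase of tyrosine breakdown, and its 2 probes lie at chr12:88037308-88053462. In post-PHx tumors it ran from -0.37 to 0.25 with a median of 0.17, and in spontaneous tumors from -0.23 to 0.64 with a median of 0.31. Spon4F (0.64), Spon1M (0.46) and Spon2M (0.37) were the 3 highest tumors, and the groups overlapped. In these 3 tumors the whole chromosome was raised, with a chromosome 12 median of 0.36, 0.35 and 0.27. Only the Spon1M segment passed the call, as a gain of 9.22 Mb (202 probes, mean 0.42). Spon5F went the other way. There Gstz1 read -0.23, inside a called loss of 49.6 Mb (802 probes, mean -0.50), with neighbours at -0.47 ± 0.21 (SD). The low post-PHx value, -0.37 in PHx4M, rested on 1 probe at -0.70 beside another at -0.03, and its 50 neighbours averaged 0.02. The group means differed by -0.19 (95% interval -0.55 to 0.17). On the slide that holds both groups, the difference turned to 0.21.

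**Figure D2:**
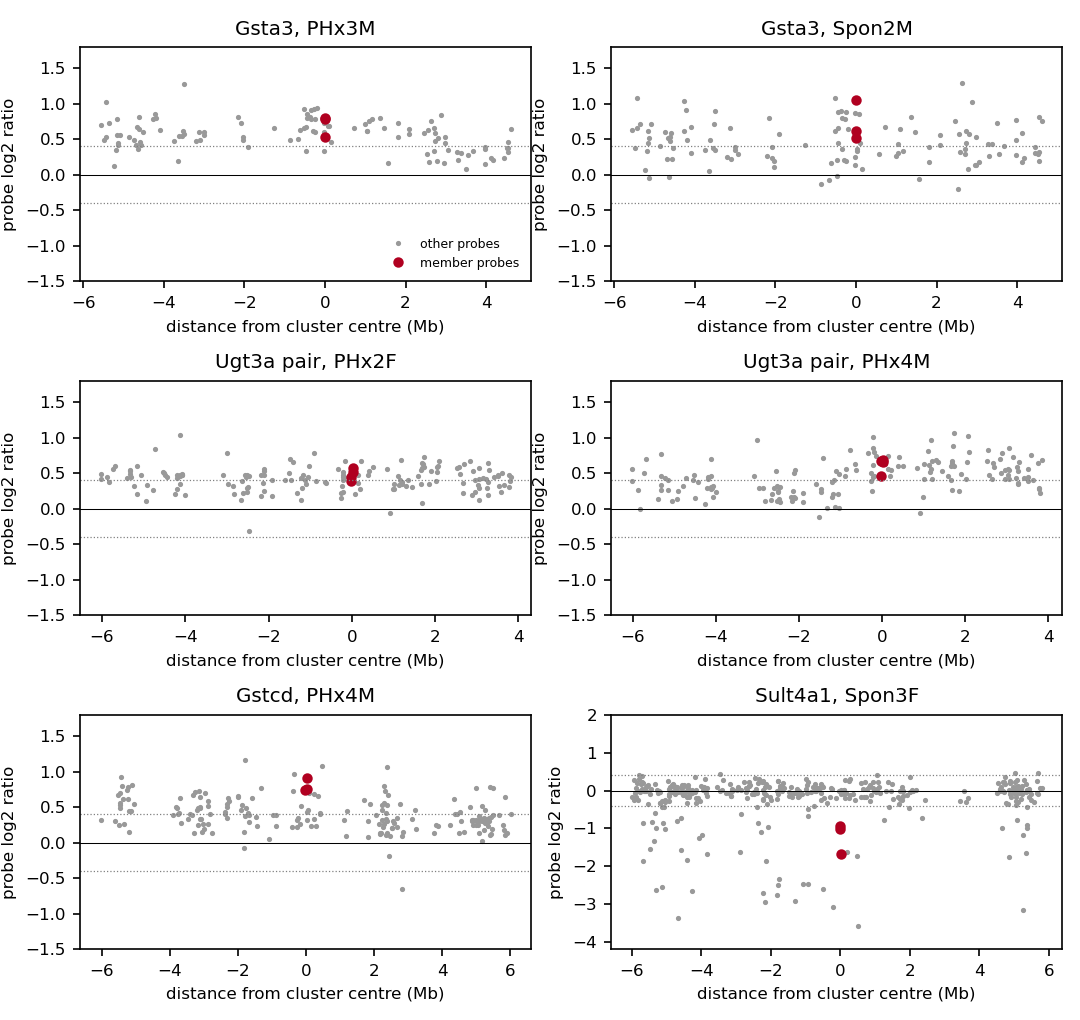
Log2 ratio of single probes (vertical axis) against distance in Mb from the centre of a cluster (horizontal axis), for 6 cluster and tumor pairs; red points are member probes, grey points other probes and dotted lines the filter at 0.4 and -0.4. Around Gsta3, the Ugt3a pair and Gstcd the grey points are raised over several Mb, whereas around Sult4a1 in Spon3F (wider vertical scale) most grey points lie near 0 with single low probes scattered among them.

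The sequences 5′ of 4 genes are shown to place short motifs in members the results turn on: Gsta3, Ugt3a1 and Gstcd from the called gains, and Gstm7, whose groups did not overlap. They are RefSeq promoters of the later build GRCm38.p6 (300 bases that end just past the gene's start, written 5′ to 3′ on the gene's strand), since no sequence of the build of the array was used. Of the 40 members, 37 had an entry; Gsta4, Sult4a1 and Ugt3a2 are named only. Capitals mark matches, on either strand, to TGACNNNGC (core of the antioxidant response element), GCGTG (core of the aryl hydrocarbon receptor site) or TATAAA (a box of core promoters), and the marked matches do not overlap.
Gsta3, chr1:21240335-21240634, plus strand: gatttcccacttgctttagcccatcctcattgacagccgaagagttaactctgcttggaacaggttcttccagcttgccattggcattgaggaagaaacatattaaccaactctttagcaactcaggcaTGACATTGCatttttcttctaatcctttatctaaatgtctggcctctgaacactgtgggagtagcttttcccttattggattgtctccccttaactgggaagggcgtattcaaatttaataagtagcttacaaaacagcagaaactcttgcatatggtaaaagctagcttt
Ugt3a1, chr15:9279579-9279878, plus strand: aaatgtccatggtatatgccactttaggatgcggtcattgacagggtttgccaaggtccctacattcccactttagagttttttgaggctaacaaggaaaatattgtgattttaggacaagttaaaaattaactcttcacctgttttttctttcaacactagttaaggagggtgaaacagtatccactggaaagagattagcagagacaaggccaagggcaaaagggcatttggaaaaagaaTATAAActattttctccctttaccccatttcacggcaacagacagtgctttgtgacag
Gstcd, first of 2 entries, chr3:133091990-133092289, minus strand: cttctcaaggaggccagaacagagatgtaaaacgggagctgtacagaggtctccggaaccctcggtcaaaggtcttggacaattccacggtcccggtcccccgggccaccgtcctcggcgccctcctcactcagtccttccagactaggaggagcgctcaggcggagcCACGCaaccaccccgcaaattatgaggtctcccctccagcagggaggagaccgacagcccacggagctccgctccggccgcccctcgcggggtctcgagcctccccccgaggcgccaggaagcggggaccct
Gstm7, second of 2 entries, chr3:107931565-107931864, minus strand: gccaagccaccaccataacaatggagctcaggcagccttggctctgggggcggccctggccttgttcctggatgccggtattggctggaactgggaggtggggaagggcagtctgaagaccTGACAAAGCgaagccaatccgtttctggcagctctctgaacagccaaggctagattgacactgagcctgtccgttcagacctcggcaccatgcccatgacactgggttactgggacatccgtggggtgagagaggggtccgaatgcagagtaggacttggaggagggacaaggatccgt

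In Gsta3 the antioxidant response core begins 121 bases before the start, and in this Gstm7 entry 129 bases before it. Of the 37 members with an entry, 3 (Gsta3, Gstm5 and Gstm7) held TGACNNNGC, which 12.4% of all 32851 promoters hold. Members were counted by a match in any of their entries (48 in all), whereas the percent over all promoters counts single entries. The units are therefore unlike for all motifs. GCGTG was found in 9 members and 32.4% of all promoters, and TATAAA in 8 members and 13.6%. A match is a run of letters and not a shown binding site, and these arrays measured copy number, not expression.

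Losses of phase II genes were single events. Sult4a1 encodes a sulfotransferase-like protein found mainly in brain, and its 3 probes lie at chr15:83906544-83928562. In post-PHx tumors it ran from -0.10 to 0.20 with a median of 0.01, and in spontaneous tumors from -1.22 to 0.27 with a median of 0.04. Spon3F was at -1.22 (0.43-fold), the lowest gene value among all members, and the other 11 tumors lay between -0.10 and 0.27. All 3 probes were low there (-0.94, -1.02 and -1.69), and 2 of them are only 32 bases apart. The probes nearest on either side, 24.2 kb before and 11.5 kb after, read -0.02 and -0.10, so the called loss covered 22.0 kb and these 3 probes alone. Low probes were frequent on this array, however. In Spon3F 3.94% of all autosomal probes were at or below -0.9, against 0.0273% to 1.13% in the other 11 tumors, and 121 of its 134 called losses had 5 probes or fewer. Of the 64 neighbours of Sult4a1 within 1 Mb, 6 were at or below -0.9 (median -0.02, mean -0.26 ± 0.79, SD). The part of these scattered low probes in the Sult4a1 value was not tested.

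Sult5a1, a little-studied sulfotransferase gene with 2 probes at chr8:126031952-126043565, was lost in Spon2M at -0.43. The other 11 tumors ran from -0.23 to 0.16, and the 97 neighbours of Spon2M averaged 0.06 ± 0.43 (SD). Gsta4, whose enzyme detoxifies 4-hydroxynonenal, also read -0.41 in Spon2M. With Gsta2 it forms a cluster of 3 probes at chr9:77985171-78131981 that was below 0 in 11 of 12 tumors, from -0.31 in Spon2M to 0.07 in Spon1M. The neighbours within 1 Mb of this cluster averaged -0.07 in Spon2M and 0.21 in Spon1M.

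The omega-class genes Gsto1 and Gsto2, which reduce dehydroascorbate and methylated arsenic, lie at chr19:47912490-47928743. In post-PHx tumors the pair ran from 0.04 to 0.15 with a median of 0.10, and in spontaneous tumors from -0.45 to 0.16 with a median of -0.11. Spon2M (-0.45), Spon6F (-0.19), Spon1M (-0.16) and Spon4F (-0.06) were below every post-PHx tumor, while Spon3F (0.07) fell among them and Spon5F (0.16) just above them. The chromosome 19 median was -0.42 in Spon2M, -0.26 in Spon1M and -0.15 in Spon6F, so the pair followed its chromosome. Gsto2 differed between the groups by 0.20 (95% interval 0.04 to 0.36, unadjusted p = 0.020, limma adjusted p = 0.986), and by 0.12 on the slide with both groups. Gsto1, with 1 probe, read -0.64 in Spon2M and 0.43 in Spon5F. It differed by 0.20 (95% interval -0.10 to 0.50), and by -0.01 on that slide.

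The pi-class pair Gstp1 and Gstp2 lies on the same chromosome at chr19:4036352-4041846. No tumor reached the filter. Post-PHx tumors ran from 0.06 to 0.16 and spontaneous tumors from -0.10 to 0.18. In Spon2M and Spon1M the pair read -0.10 and -0.07, while its neighbours within 1 Mb averaged -0.42 and -0.28. The pair was above these neighbours in all 12 tumors, by a median of 0.12 and at most 0.32. Over the 12 tumors its correlation with them was 0.81. Each of the 2 genes had 1 probe.

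**Figure D3:**
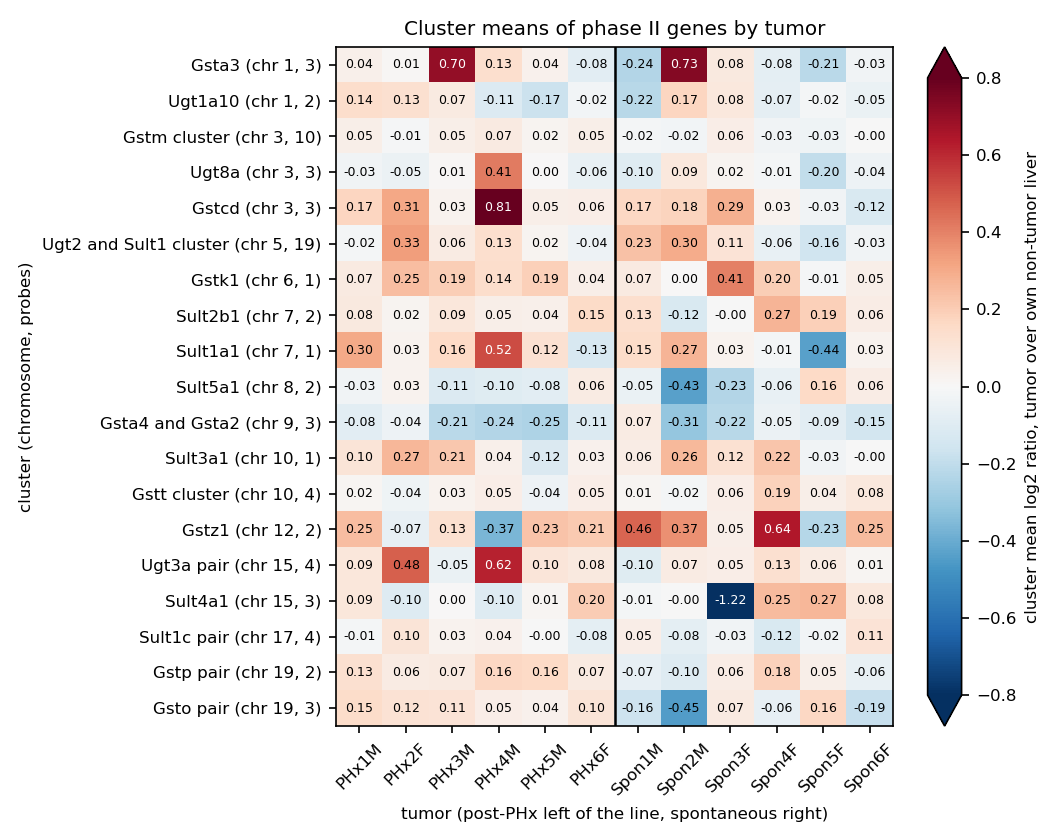
Cluster mean log2 ratio of the 19 clusters (rows, with chromosome and number of probes) in the 12 tumors (columns), red above 0 and blue below 0. Most cells are pale, and the strongest are Gstcd in PHx4M (0.81), Gsta3 in Spon2M (0.73) and PHx3M (0.70), the Ugt3a pair in PHx4M (0.62), Gstz1 in Spon4F (0.64) and Sult4a1 in Spon3F (-1.22).

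The largest array of members, 9 genes with 19 probes at chr5:87965017-88662189, holds Ugt2 genes, which glucuronidate steroids and bile acids, and Sult1 genes for phenols, thyroid hormone, catecholamines and estrogen. Its mean over all probes ran from -0.04 to 0.33 in post-PHx tumors with a median of 0.04, and from -0.16 to 0.30 in spontaneous tumors with a median of 0.04. PHx2F (0.33), Spon2M (0.30) and Spon1M (0.23) were highest, and their neighbours within 1 Mb averaged 0.21, 0.16 and 0.22. The group means differed by 0.02 (95% interval -0.19 to 0.22).

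Single genes of this array passed the filter where the mean did not. Sult1d1, which sulfates catecholamines, was gained in 4 tumors, at 0.74 in PHx2F, 0.66 in Spon2M and 0.46 in PHx3M and Spon1M. Its values ran from 0.01 to 0.74 in post-PHx and from -0.11 to 0.66 in spontaneous tumors, with means of 0.25 ± 0.29 and 0.25 ± 0.30 (SD, n = 6). It was above the mean of the other 8 genes of the array in 10 of 12 tumors, by up to 0.45. One of its 2 probes was above 0 on all 12 arrays (0.08 to 0.95), and the other ran from -0.30 to 0.52. Ugt2b1 was gained in PHx2F (0.41) and Spon2M (0.44). Ugt2a2 was gained in PHx4M (0.45), where its 2 probes read -0.03 and 0.94, so the mean leaned on 1 of them. Ugt2a3, which acts on bile acids, was gained in PHx4M (0.41) and lost in Spon5F (-0.44). Its 2 probes read -0.10 and -0.78 in Spon5F. Sult1e1, the estrogen sulfotransferase, was below the mean of the other 8 genes in 12 of 12 tumors, and Sult1b1 in 11 of 12.

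The mu-class Gstm array holds 7 genes with 10 probes at chr3:108025229-108168606. Its mean over all probes lay between -0.01 and 0.07 in post-PHx tumors and between -0.03 and 0.06 in spontaneous tumors. The group means of the array differed by 0.05 (95% interval 0.01 to 0.08, not adjusted for the 19 clusters), and by 0.0078 with the median of its probes. The means of its 7 genes differed from each other with an SD of 0.14, and a single gene varied over the tumors with a median SD of 0.12. Gstm6 averaged 0.31 ± 0.14 in post-PHx and 0.22 ± 0.16 in spontaneous tumors (SD, n = 6), and was above the mean of the other 6 genes in 11 of 12 tumors. It was past the filter in PHx5M (0.43), PHx1M (0.41) and Spon3F (0.40). Gstm1 was below that mean in 10 of 12 tumors, as were Gstm3 and Gstm4. Such offsets between copies appear on nearly the same side in most arrays. No dye swap was made, so a probe's own dye bias and a change shared by all tumors cannot be told apart. Of the member probes with values on all arrays, 5.71% were on one side of 0 in all 12 tumors, against 5.80% of all autosomal probes.

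**Figure D4:**
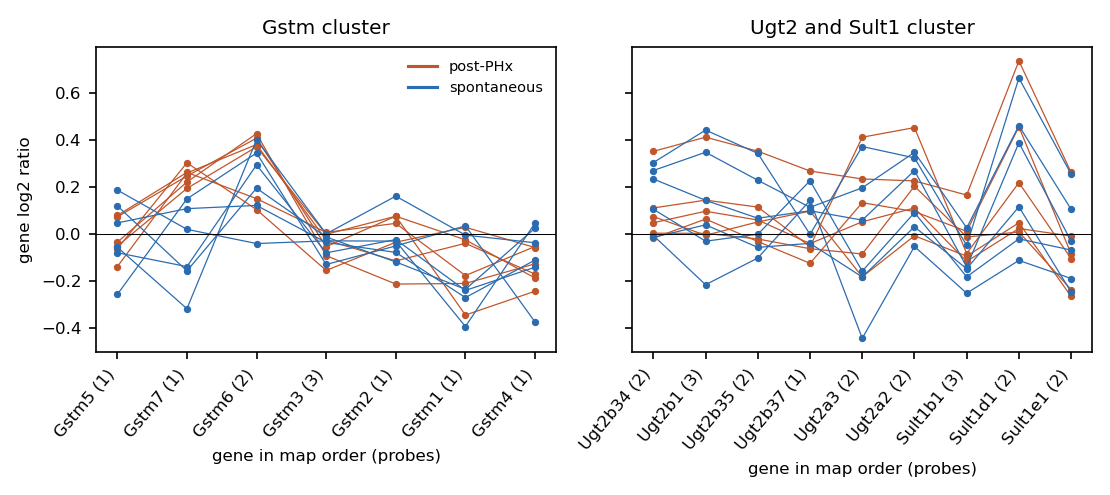
Gene log2 ratio (vertical axis) along the 7 genes of the Gstm array and the 9 genes of the Ugt2 and Sult1 array in map order, with the number of probes in brackets; each line is 1 tumor, orange for post-PHx and blue for spontaneous. Lines keep a shared shape in most tumors, with Gstm6 and Sult1d1 high and Sult1b1 and Sult1e1 low, while most Ugt2 genes are raised in PHx2F, Spon2M and Spon1M, except Ugt2b37 in Spon2M (-0.00).

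The remaining clusters were close to 0 or rested on 1 probe. The theta-class array Gstt1, Gstt3 and Gstt4 at chr10:75224209-75266073 ran from -0.04 to 0.19 over the 12 tumors. The pair Sult1c1 and Sult1c2 at chr17:53307193-53454723 ran from -0.12 to 0.11. Ugt1a10, of the locus whose enzymes conjugate bilirubin, at chr1:89997451-90035963 ran from -0.22 to 0.17. The cholesterol sulfotransferase gene Sult2b1 at chr7:45616686-45623546 ran from -0.12 to 0.27. Sult1a1 of phenol sulfation, with 1 probe at chr7:126464085-126464141, ran from -0.44 in Spon5F to 0.52 in PHx4M, while its neighbours averaged 0.01 and 0.02 in those tumors. The kappa-class gene Gstk1, with 1 probe at chr6:42179992-42180049, ran from -0.01 to 0.41, with the highest value in Spon3F. Sult3a1, with 1 probe at chr10:33555969-33556027, ran from -0.12 to 0.27.

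No member gene differed between the groups in limma's test across all 19123 genes with a value on every array (Benjamini-Hochberg adjusted p under 0.05), and neither did any other gene (0% called). At an unadjusted p under 0.05 there were 2 members, Gstm7 and Gsto2, and 818 of all genes (4.28%). The median difference of the 40 members, post-PHx minus spontaneous, was 0.02 against 0.01 for all genes, and 25 members had a difference above 0. The 95% interval of a member's difference reached from 0.11 to 0.45 on either side of it, with a median of 0.18, before any adjustment for the number of genes. The 10 largest differences were those of Gstm7 (0.30), Ugt3a2 (0.21), Gsto1 (0.20), Gsto2 (0.20), Gstz1 (-0.19), Sult1a1 (0.16), Gstcd (0.15), Ugt3a1 (0.15), Sult4a1 (0.12) and Ugt2a3 (0.12). The limma adjusted p was 0.986 for each of these 10. Several leaned on PHx4M. Without this tumor the difference was 0.13 for Ugt3a2, 0.07 for Ugt3a1, 0.04 for Gstcd, 0.09 for Sult1a1, 0.06 for Ugt2a3 and -0.11 for Gstz1. Without Spon2M that of Gsto1 was 0.09, without Spon5F those of Sult1a1 and Ugt2a3 were 0.08 and 0.04, and without Spon3F that of Sult4a1 was -0.10. Leaving out a tumor also raised some, to 0.30 for Gsto1, -0.29 for Gstz1 and 0.20 for Sult4a1 without Spon5F, 0.20 for Ugt2a3 without Spon2M and 0.19 for Sult4a1 without Spon4F. Without PHx2F that of Ugt3a1 was 0.10, and without Spon4F that of Gstz1 was -0.12. On the slide with both groups it was 0.09 for Ugt3a2, 0.02 for Ugt3a1, 0.13 for Gstcd, 0.20 for Sult1a1, 0.24 for Ugt2a3 and -0.07 for Sult4a1.

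Gstm7 was the only member whose groups did not overlap, as were 0.193% of all genes. Its single probe ran from 0.19 to 0.30 in post-PHx tumors (median 0.25) and from -0.32 to 0.15 in spontaneous tumors (median -0.06). The difference was 0.30 (95% interval 0.14 to 0.47, unadjusted p = 0.00168, limma adjusted p = 0.986), and 0.31 on the slide with both groups. With a different background correction (normexp) it was 0.09 (95% interval -0.09 to 0.28).

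**Figure D5:**
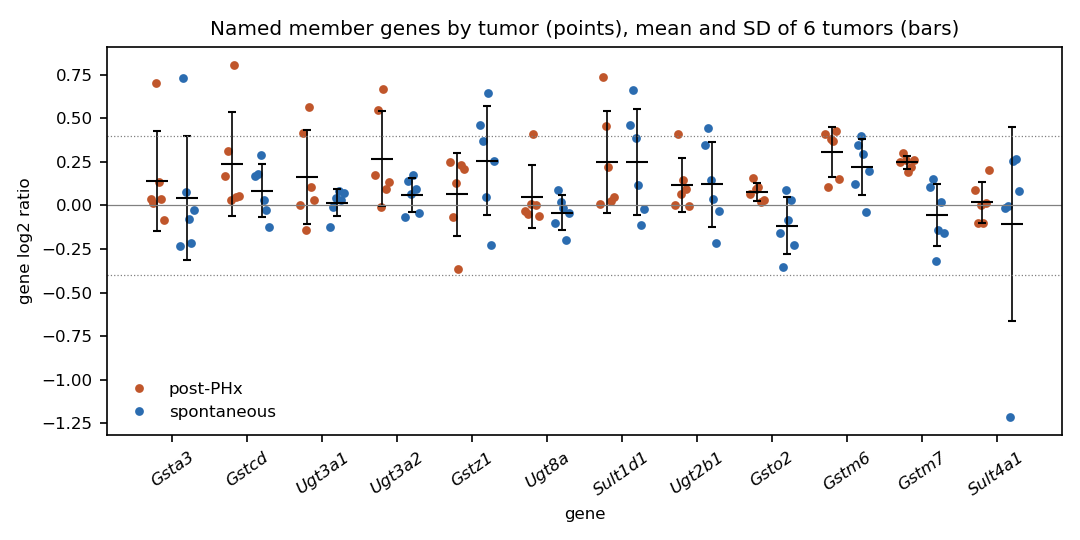
Gene log2 ratio (vertical axis) of 12 member genes in the 6 post-PHx (orange) and 6 spontaneous (blue) tumors; black bars are the mean and SD of 6 tumors and dotted lines the filter at 0.4 and -0.4. Single tumors carry the high values of Gsta3 and Gstcd and the low value of Sult4a1, and the groups are apart for Gstm7 alone.

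Against the own non-tumor liver, 2 member genes passed limma's test in post-PHx tumors, where 2.75% of all genes did. They were Gstm6 at 0.31 (95% interval 0.17 to 0.44, limma adjusted p = 0.0248) and Gstm7 at 0.25 (95% interval 0.13 to 0.37, limma adjusted p = 0.0330), each above 0 in 6 of 6 post-PHx tumors. Neither held under normexp, where Gstm6 averaged 0.03 and Gstm7 -0.00. Both calls also ended without PHx1M, PHx3M, PHx4M or PHx5M, when 0 members were called, and that of Gstm7 also without PHx2F or PHx6F. Calls over all genes fell as well, from 526 to 93, 111, 131 and 342 without those first 4 tumors. The means ran from 0.28 to 0.29 for Gstm6 and from 0.25 to 0.26 for Gstm7 without each of these 4 tumors. The 1 Mb bin that holds both genes averaged 0.00 in the post-PHx tumors. In spontaneous tumors 0 members passed the limma test, where 4.51% of all genes did. There 11 of 40 members had an unadjusted p under 0.05, as did 21.6% of all genes. In post-PHx tumors 12 of 40 members had an unadjusted limma p under 0.05, against 19.5% of all genes.

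The clusters mostly moved with the DNA around them. Across the 12 tumors the correlation of the cluster mean with the mean of its neighbours within 1 Mb had a median of 0.73 over the 19 clusters, as a description, since the points share their arrays. It was 0.96 for the Gsto pair, 0.95 for Gsta3, 0.94 for the Ugt3a pair, 0.84 for Ugt8a and 0.82 for the Ugt2 and Sult1 array. It was near 0 for the Gstm array (-0.07) and for the single probe of Sult1a1 (-0.05).

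Other genes of conjugation were read in the same way, from a list of 45 genes for cofactor supply, other transferases, export and regulation, of which 43 were found by name. In post-PHx tumors 5 of their 257 pairs with a value (1.95%) were gained, against 3.37% of all gene and tumor pairs, and 0 were lost, against 1.04%. In spontaneous tumors 9 of 258 pairs (3.49%) were gained, against 4.23%, and 14 (5.43%) were lost, against 5.2%. In limma 0 of 42 tested genes were called between the groups and 0 in post-PHx tumors. In spontaneous tumors, where 4.51% of all genes were called, Glyat, the glycine conjugating enzyme, was called at -0.20 (95% interval -0.31 to -0.09, limma adjusted p = 0.0495). Glyat lies on chromosome 19. It was lowest in Spon2M (-0.38) and Spon1M (-0.30), where the chromosome 19 medians given above were also low.

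Among the enzymes that supply glutathione, the synthetase Gss on chromosome 2 was gained in PHx4M (0.82) and PHx3M (0.51). Ggt1, which breaks glutathione down, read -0.98 in Spon3F. The sulfate donor synthase Papss2 on chromosome 19 read -0.56 in Spon2M, and the exporter Abcc2 of the same chromosome -0.64 in the same tumor. The microsomal transferase gene Mgst1 was gained in PHx4M (0.58), the nicotinamide methyltransferase gene Nnmt in Spon1M (0.59) and the dioxin receptor gene Ahr in Spon1M (0.82). Baat, which joins bile acids to taurine or glycine, read -0.50 in Spon2M. The epoxide hydrolase gene Ephx1 read -0.74 and the nuclear receptor gene Rxra -0.81 in Spon3F, the array with the most low probes. Arsa read -0.67 in Spon3F and -0.46 in Spon1M. The exporter Abcc4 read 0.98 in Spon2M but -0.96, -0.66 and -0.50 in Spon3F, Spon5F and Spon1M. Hnf4a, a liver regulator outside the naming rule and chosen after its values were seen, has 1 probe on chromosome 2. It was past the filter in 5 tumors: PHx3M (0.89), PHx4M (0.77), Spon1M (0.69), Spon3F (0.52) and Spon2M (0.41). The probe was above 0 in all 12 tumors, from 0.05 upward, and the part of its own dye bias was not tested. Hnf4a was not called in post-PHx (mean 0.39, limma adjusted p = 0.0820) or in spontaneous tumors (mean 0.32, limma adjusted p = 0.119).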

How the data were processed

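Genomic DNA of 12 tumors and of the matched non-tumor livers was cut with AluI and RsaI, labelled and hybridised by the authors to mouse CGH arrays with 43020 spots. Positions are those of build NCBI36 (mm8), per the file headers. The deposited log10 ratio of red (tumor) over green (non-tumor liver) and its error came from Feature Extraction 10.5.1.1, after background subtraction and dye normalization of the intensity of each spot by the authors. The authors' own region calls were not used, and no dye swap was made, so a dye effect of a probe stays in its ratio.

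Control and outlier-flagged spots were dropped, repeated spots were averaged per probe, and ratios were turned to log2 and centred on the autosomal median. Probes of a gene name on 1 chromosome were averaged. The comparison of groups used lmFit and eBayes of limma 3.58.1 (R 4.3.3) over 19123 genes, with Benjamini-Hochberg adjustment, and the fit was tested on simulated data. Intervals of single genes come from limma, and those of clusters from the spread of the 6 tumors per group. Gstz1, a cluster of 1 gene, carries the interval of a cluster. The number of arrays limits the precision. All clusters are named. Genes are named if they passed limma, passed the filter with 2 or more probes, or were among the 10 largest differences. A result of the wider list of conjugation genes is not reported here. The members and lists were chosen with earlier results of these data known.

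Alternatives concerned background correction, centring, flagged and dim spots, summary of probes, 1 Mb bins, array weights, slide, sex, the tumor number as a block, the methods' t-test, region thresholds and leaving out each tumor. Probe positions were not set against exons, since the sequence tables used are of a later build.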

Additional observations from a re-analysis of the deposited data

Results flagged for a closer look

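Of 38 sets of 6 tumors (19 clusters in each group), 6 held a tumor that lay far from the other 5 by Dixon's criterion, which chance meets in about 1 in 20 sets. For Gsta3 these were PHx3M at a log2 ratio of 0.70, while the other post-PHx tumors ended at 0.13, and Spon2M at 0.73, while the other spontaneous tumors ended at 0.08. Ugt8a (0.41) and Gstcd (0.81) stood apart in PHx4M, where the other post-PHx tumors ended at 0.01 and 0.31. Sult4a1 stood apart in Spon3F at -1.22, with the other spontaneous tumors between -0.01 and 0.27. The Gstm array stood apart in Spon3F at 0.055, a small value in a set whose other members ran from -0.03 to -0.00. No member gene differed between the groups past the threshold of limma.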

How the results depend on the processing

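The count of member genes called between the groups was 0 in every limma setting run, and 2 by the methods' t-test at an unadjusted p under 0.05, as for 4.18% of all genes (0 after adjustment). With the tumor number as a replicate block it was 0 as well (3 at an unadjusted p under 0.05, as for 4.29% of all genes). The deviations of same-numbered tumors from their group means correlated with r from -0.04 to 0.45, above 0.1 in 1 of 6 pairs. That pair was PHx6F and Spon6F (0.45), above its highest r with another number (0.37), and both tumors were on the slide with both groups. For the other numbers r was at most 0.04 and below the highest r with another number. The numbers were treated as names in the other settings.

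The 2 members called in post-PHx tumors against the own liver became 1 without genes of 1 probe (89 of all 10885 genes left were called), 0 in 1 Mb bins (0 of all 2057 bins were called) and 10 with array weights, where calls over all genes rose from 526 to 2765. They were 3 other genes under normexp (Gstm5, Gstt4 and Gstp1), where calls over all genes rose to 3479, and 0 to 3 with 1 tumor left out. In spontaneous tumors the 0 became 5 of 40 under normexp, where calls over all genes rose from 863 to 3743 of 19123, and 0 to 2 with 1 tumor left out, 2 being the count without Spon5F. The ratio of Gstm7 in post-PHx tumors turned to -0.0019 under normexp. The causes were not tested.

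Gained pairs in post-PHx tumors numbered 9 under normexp (3.75%, against 3.08% of all pairs), 32 at a filter of 0.25 (13.3%, against 7.93%), 4 at 0.6 (1.67%, against 1.54%) and 8 to 15 with 1 tumor left out (8, or 4%, against 2.86%, without PHx4M). Lost pairs there numbered 1 under normexp (0.417%, against 1.15%) and 8 at 0.25 (3.33%, against 5.15%). In spontaneous tumors 31 were gained at 0.25 (12.9%, against 11.2%) and 3 at 0.6 (1.25%, against 1.37%). There 3 were lost under normexp (1.25%, against 5.43%), 15 at 0.25 (6.25%, against 11.8%), 2 at 0.6 (0.833%, against 2.13%) and 3 to 6 with 1 tumor left out (3, or 1.5%, against 4.58%, without Spon2M). Pairs inside called regions numbered 32 at 0.25 (6.67%, against 6.91%).

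On the slide with both groups (PHx5M and PHx6F against Spon5F and Spon6F), the differences of Gsto1 (-0.0083), Gstz1 (0.21) and Sult4a1 (-0.066) changed sign. With slide as a term the differences were the same. The other slides held 1 group each, so the slide term rests on this same contrast and is not a second check. That of Sult4a1 was -0.10 without Spon3F and at most 0.20 with another tumor left out. The cluster difference of Ugt1a10 was -0.13 under normexp, and that of the Gstm array 0.0078 with the median of probes. Counts and cluster means kept within their limits in 426 recomputed values and moved beyond them in 27. The limit of a cluster difference was the SD of the cluster mean over the tumors of a group. Leaving out 1 of the 6 tumors of a group cannot move a difference that far. The cluster values with 1 tumor left out were thus bound to count as kept. Genes with 1 probe, signal nearer to background in red than in green and 6 tumors per group limit what these arrays can show.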
